A study of Mus musculus with 24 samples.

Results

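The genes described here act in G2 phase and mitosis, the last stages of the division of a cell. They were chosen by name, and of the 38 named genes 36 had a probe set (a group of short probes read as 1 value) annotated to them alone on the array, of 12393 such genes in all. Ccnb1 and Cdca8 had none and were not analysed here. Where a gene had several, the one brightest on average over the 24 arrays was taken. In the adult liver hepatocytes are mostly out of the cell cycle, and their transcripts for cyclins, mitotic kinases and spindle proteins are scarce. When hepatocytes are driven to divide, by loss of liver mass or by a mitogen, genes of DNA replication are transcribed first and the genes of G2 and mitosis later. Cyclin-dependent kinase 1 with its cyclins starts mitosis, the spindle checkpoint delays chromosome separation until every chromosome is attached, and the anaphase-promoting complex then marks cyclins for destruction so that the cell can divide.

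Livers came from 24 female mice of mixed C57BL/6x129Sv background, 2 in each of 12 groups, and the RNA of each mouse was measured on 1 Affymetrix array. Wild-type mice had mouse CAR, the constitutive androstane receptor (gene Nr1i3), which switches on drug-metabolising genes in hepatocytes. Knockout mice had no mouse CAR (mCAR -/-). Human CAR mice were on the same knockout background, reached through 2 rounds of breeding, and expressed human CAR from a transgene with a mouse albumin promoter, which is active in hepatocytes. Each genotype received intraperitoneal injections 24 h apart for 3 days, and livers were taken 6 h after the last one. The treatments were corn oil as vehicle, daily phenobarbital (spelled phenobarbitol in the labels) at 100 mg/kg, daily CITCO at 30 mg/kg, and a single dose of 3 mg/kg TCPOBOP on day 1 with corn oil afterwards. Per the labels TCPOBOP binds mouse CAR and CITCO human CAR, whereas phenobarbital, an anticonvulsant, moves both receptors into the nucleus. So the series asks which transcripts follow activation of each receptor, and here the question is put to the genes of mitosis. With 2 mice a group, p-values rest on the spread between these mice within their groups. The fit pools that spread over all 12 groups and draws partly on the other genes. The p-values therefore do not reflect the compared groups alone. A lower level of a transcript in whole liver can mean fewer cells that make it or less RNA in each, which cannot be told apart.

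Values are log2 expression as deposited, a change is a difference of 2 group means on that scale, SE is the standard error from a limma fit of the 12 groups, and adjusted p is the Benjamini-Hochberg value over 12393 genes. A gene was called changed at an adjusted p under 0.05. Many mitosis genes were dim: 22 of the 36 lay below the 40th percentile of the array (4.93 to 5.08) on both wild-type corn oil arrays. On all 24 arrays 10 did so. Changes of dim probe sets can be understated, which was not tested here. Nr1i3 served as a check of genotype, although the sources used here do not place its probe set inside or outside the deletion. It read 6.84 to 8.0 on wild-type arrays and 5.03 to 5.60 on the others. Cyp2b10, a direct target of CAR, rose by 7.42 (SE 0.38, adjusted p = 7.56e-09) with TCPOBOP in wild type. In human CAR mice Cyp2b10 rose by 3.01 (SE 0.38, adjusted p = 0.00302) with CITCO. Knockout phenobarbital replicate 2 and human CAR phenobarbital replicate 1 are called here the 2 arrays that stood apart. Their median correlations to the other arrays were the lowest, 0.9798 and 0.9703, against 0.9811 to 0.9913 for the other 22. Next lowest were wild-type TCPOBOP replicates 1 and 2, at 0.9825 and 0.9811, and all the rest lay at 0.9874 or above. Knockout phenobarbital replicate 2 was thus close to the wild-type TCPOBOP arrays.

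Promoters of mitosis genes are known for a cell cycle homology region (CHR), the site of the DREAM and MuvB complexes, usually downstream of CCAAT boxes bound by NF-Y. RefSeq windows (build GRCm38.p6) that run from 250 bases before the annotated start site to 50 after it were listed for 32 of the 38 named genes, 34 windows in all. The CHR was searched as TTTGAA or TTCGAA and the CCAAT box as CCAAT, both on either strand. A CHR match was present in 26 of 34 windows (76.5%), against 19.2% of all 32851 windows of the same length. CCAAT was present in 28 (82.4%), against 37.4%, and both together in 25 (73.5%), against 7.5%. A CHR match lay within 50 bases of the start site in 24 of the 34 windows (70.6%), against 5.3% of all windows. By contrast an E2F word (TTTCCCGC, TTTCGCGC, TTTGCCGC or TTTGGCGC), searched the same way, was in 1 window (2.9%), against 2.3%. The following windows belong to Cdk1, Ccnb2, Ttk and Ube2c, shown because these 4 genes passed the threshold with both TCPOBOP and phenobarbital in wild type. Capitals mark the CHR and CCAAT matches on either strand, and each sequence runs 5′ to 3′ on the strand of its gene.
Cdk1 (chr10:69352863-69353162, minus strand): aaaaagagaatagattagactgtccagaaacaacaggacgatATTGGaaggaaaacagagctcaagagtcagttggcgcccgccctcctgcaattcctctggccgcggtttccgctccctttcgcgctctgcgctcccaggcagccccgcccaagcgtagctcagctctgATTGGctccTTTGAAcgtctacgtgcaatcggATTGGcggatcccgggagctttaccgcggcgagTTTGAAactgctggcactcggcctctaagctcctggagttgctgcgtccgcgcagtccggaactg
Ccnb2 (chr9:70421505-70421804, minus strand): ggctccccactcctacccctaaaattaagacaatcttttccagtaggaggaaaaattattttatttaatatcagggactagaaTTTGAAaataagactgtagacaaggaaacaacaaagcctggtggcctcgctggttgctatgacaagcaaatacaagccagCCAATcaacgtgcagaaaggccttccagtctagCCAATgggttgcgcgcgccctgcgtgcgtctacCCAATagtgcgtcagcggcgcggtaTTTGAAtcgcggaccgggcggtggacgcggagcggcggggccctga
Ttk (chr9:83834439-83834738, plus strand): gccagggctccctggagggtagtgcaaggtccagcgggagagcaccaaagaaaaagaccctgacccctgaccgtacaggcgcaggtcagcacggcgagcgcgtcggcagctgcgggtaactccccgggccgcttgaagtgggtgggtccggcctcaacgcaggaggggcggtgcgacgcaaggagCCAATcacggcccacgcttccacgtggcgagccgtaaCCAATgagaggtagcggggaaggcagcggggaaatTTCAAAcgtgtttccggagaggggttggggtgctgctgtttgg
Ube2c (chr2:164769679-164769978, plus strand): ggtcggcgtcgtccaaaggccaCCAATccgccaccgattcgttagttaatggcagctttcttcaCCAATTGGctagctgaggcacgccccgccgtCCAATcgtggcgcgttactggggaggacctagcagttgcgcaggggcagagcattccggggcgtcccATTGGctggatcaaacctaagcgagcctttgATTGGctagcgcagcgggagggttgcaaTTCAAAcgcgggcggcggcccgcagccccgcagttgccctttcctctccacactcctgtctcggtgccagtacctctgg
In Cdk1 a CHR match lay 15 to 10 bases before the start site, in Ube2c 29 to 24 bases before it, and in Ccnb2 and Ttk just after it. CCAAT matches stood upstream of it in each, and in Ube2c the forward and reverse letters of one pair overlapped. The E2F word was in the window of Cdk1 only. A match describes these letters and is not a site of binding.

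**Figure D1:**
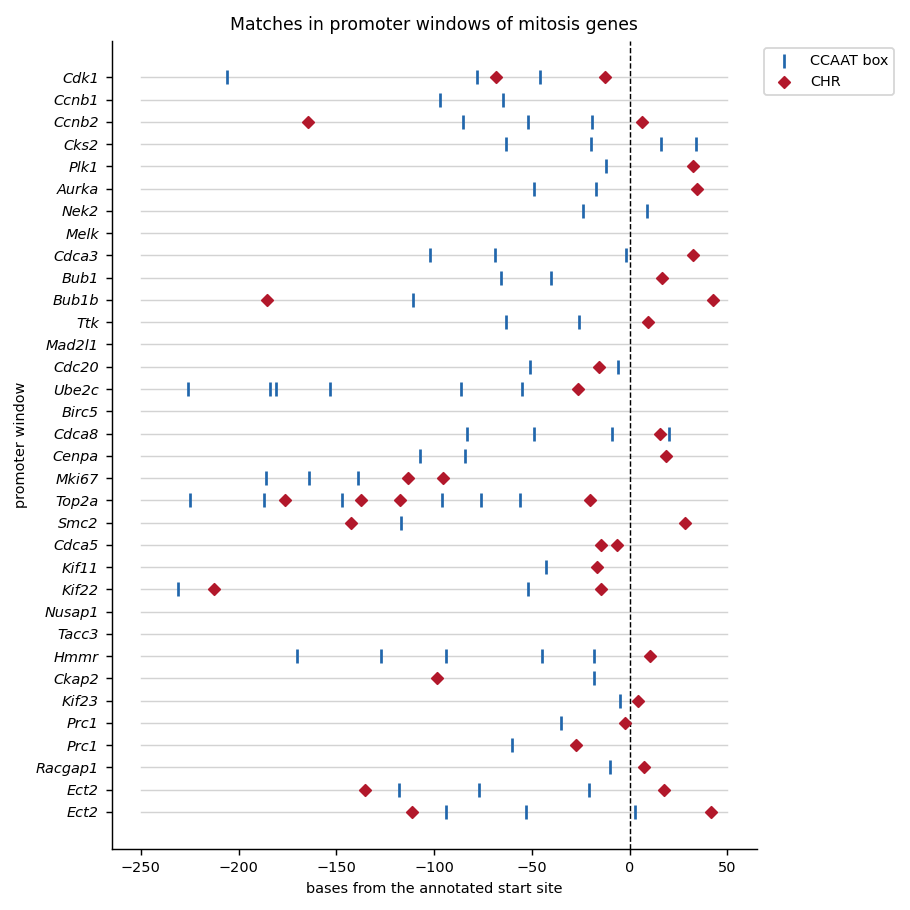
Positions of CHR (diamonds) and CCAAT (bars) matches in the 34 promoter windows of 32 named genes, in bases from the annotated start site (dashed line at 0). Most CHR matches sit near the start site, with CCAAT upstream, and the windows of Melk, Mad2l1, Birc5, Nusap1 and Tacc3 hold neither.

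Among the 20 genes with a window that rose with TCPOBOP in wild type, 17 of 22 windows (77.3%) held both letters. Among the 10 that were measured and not called, 7 of 10 windows (70.0%) did. Birc5, with the largest change of all, had neither in its window, and Top2a, whose brightest probe set was not called, had both.

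TCPOBOP raised the mitosis genes of wild-type liver. In the comparison with corn oil 25 of 36 were called higher and 0 lower, where 2.81% of all 12393 genes were called higher. The median change was 0.67, against 0.03 over all genes, and 35 of the 36 changes were above 0. In 12 genes the change exceeded 1 on the log2 scale, which is 2.01-fold to 3.83-fold. Both TCPOBOP arrays lay above both corn oil arrays in 34 of the 36 genes, as they did in 27.6% of all genes. They lay above all of the other 22 arrays in 27, as they did in 3.42% of all genes.

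**Figure D2:**
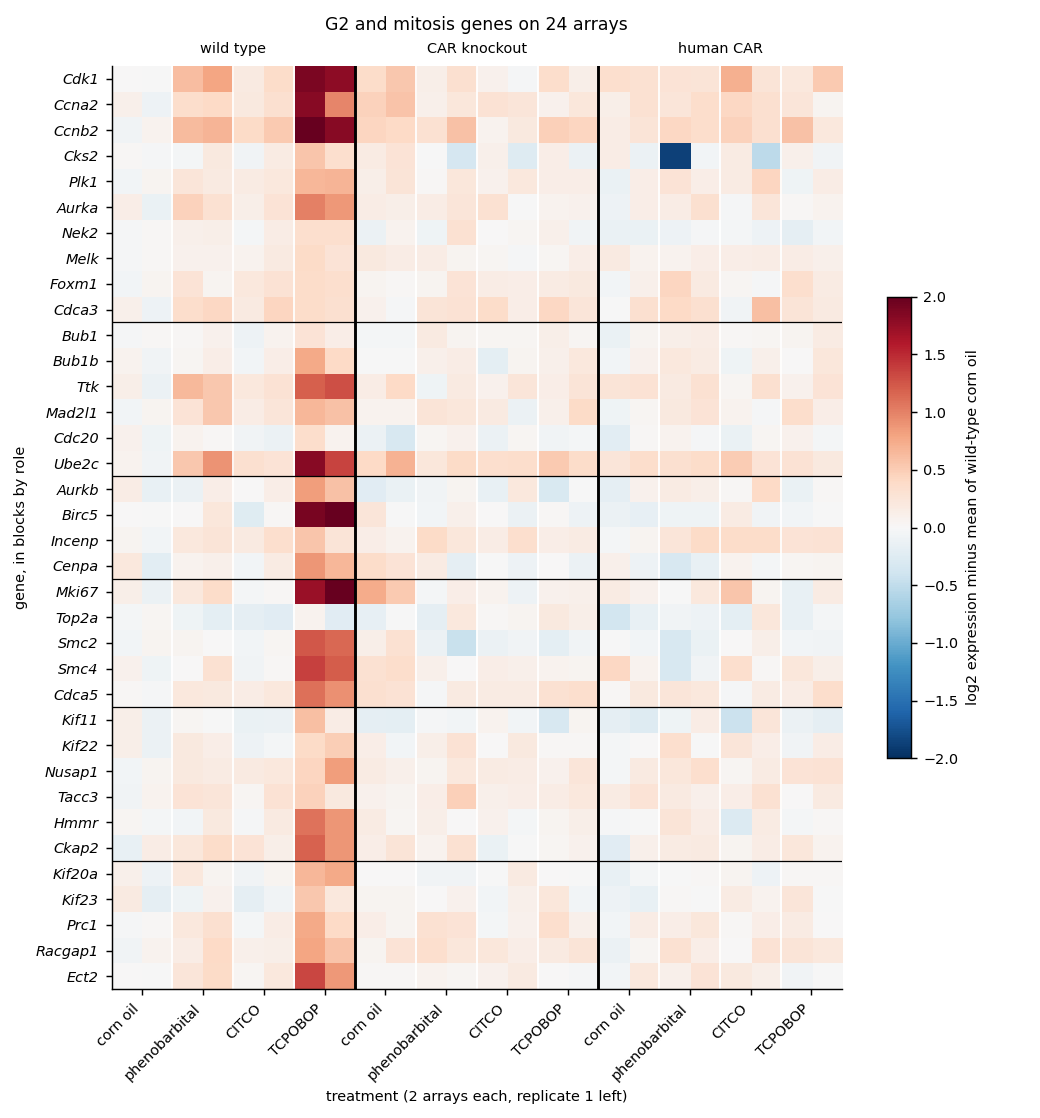
Log2 expression of the 36 genes on each of the 24 arrays minus the mean of the 2 wild-type corn oil arrays, in blocks by role, with red above and blue below that mean. The wild-type TCPOBOP columns are the darkest red, and the single dark blue cell is Cks2 on human CAR phenobarbital replicate 1.

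The kinase that drives entry into mitosis and its cyclins were among the strongest. Cdk1 read 4.92 and 4.91 on the wild-type corn oil arrays and 6.80 and 6.71 on the TCPOBOP arrays. The next highest of the 24 arrays was 5.70, a wild-type phenobarbital liver, so the 2 TCPOBOP livers stood clear of every other. Cdk1 rose by 1.83 (SE 0.14, adjusted p = 4.79e-07). Ccnb2, a B-type cyclin and partner of Cdk1, read 4.12 and 4.27 with corn oil and 6.18 and 6.01 with TCPOBOP. That rise of 1.90 (SE 0.12, adjusted p = 5.37e-08) took Ccnb2 from below the 40th percentile to above it, on these 2 arrays alone. Ccna2, the cyclin of S and G2 phase, read 5.32 and 5.11 with corn oil and 7.03 and 6.19 with TCPOBOP. Its 2 TCPOBOP arrays differed by more than those of any other gene in this block, and the rise was 1.40 (SE 0.18, adjusted p = 0.000117).

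The kinases that act on the spindle rose too. Aurka, the kinase of the spindle poles, went from 4.49 and 4.23 to 5.37 and 5.23, a rise of 0.94 (SE 0.13, adjusted p = 0.000223). Plk1, a kinase needed from mitotic entry to exit, went from 5.98 and 6.11 to 6.71 and 6.72, a rise of 0.67 (SE 0.12, adjusted p = 0.00281). Melk, a kinase of dividing cells, was dim throughout and rose by 0.33 (SE 0.08, adjusted p = 0.0309). The remaining 4 genes of the block were not called. Foxm1, the transcription factor that drives many G2 genes, read 5.62 and 5.74 with corn oil and 6.05 and 6.01 with TCPOBOP, a difference of 0.35 (SE 0.11, adjusted p = 0.0817). Nek2, which separates the centrosomes, read 3.05 and 3.10 against 3.41 and 3.42 (difference 0.34, adjusted p = 0.124), below the dim limit on all arrays. In both genes the TCPOBOP arrays lay above the corn oil arrays, as they did in 27.6% of all genes. Cks2, a small subunit of Cdk1 complexes, read 7.56 and 7.50 against 8.08 and 7.87. It had the largest SE of the 36 genes, 0.37, since its 2 human CAR phenobarbital arrays read 5.66 and 7.47 and the fit shares 1 variance over all groups. Cdca3, which promotes entry into mitosis, read 4.90 and 4.68 against 5.15 and 5.11, and its difference was 0.34 (SE 0.17).

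In the spindle checkpoint and the anaphase-promoting complex 4 of 6 genes rose. Ube2c, the ubiquitin-conjugating enzyme that works with the anaphase-promoting complex, read 4.72 and 4.57 with corn oil and 6.46 and 6.00 with TCPOBOP, a rise of 1.59 (SE 0.15, adjusted p = 3.6e-06). Ttk, the kinase that starts checkpoint signalling at unattached chromosomes, read 3.60 and 3.37 against 4.69 and 4.78, a rise of 1.25 (SE 0.13, adjusted p = 1.08e-05). In both genes no other array reached the TCPOBOP values. Mad2l1 and Bub1b, components of the inhibitor that holds back the anaphase-promoting complex, rose by 0.62 (SE 0.12, adjusted p = 0.00633) and 0.58 (SE 0.13, adjusted p = 0.0123). Bub1, the kinase that recruits checkpoint proteins to centromeres, read 3.46 and 3.51 against 3.76 and 3.62 and was not called (difference 0.20, adjusted p = 0.255). Cdc20, the activator of the anaphase-promoting complex, read 5.58 and 5.42 against 5.85 and 5.56, with overlap between the groups, and was not called on this probe set.

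All 4 measured genes of the chromosomal passenger complex and the centromere rose. Birc5 (survivin), a subunit of that complex, read 3.65 on both corn oil arrays and 5.54 and 5.64 with TCPOBOP. No other array exceeded 3.89, and the rise of 1.94 (SE 0.12, adjusted p = 2.68e-08), or 3.83-fold, was the largest of the 36 genes. Aurkb, the kinase of the complex, went from 4.44 and 4.15 to 5.14 and 4.88 (0.71, SE 0.16, adjusted p = 0.0136). Incenp, its scaffold, went from 5.01 and 4.88 to 5.50 and 5.21 (0.41, SE 0.11, adjusted p = 0.0354). Cenpa, the histone that marks centromeres, went from 4.34 and 3.92 to 5.02 and 4.80 (0.78, SE 0.14, adjusted p = 0.00299). In all 4 genes both TCPOBOP arrays lay above both corn oil arrays, as they did in 27.6% of all genes.

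Genes of chromosome structure had the highest block median, 1.20. Mki67, the nuclear antigen used as a marker of cycling cells, read 3.47 and 3.25 with corn oil and 5.08 and 5.39 with TCPOBOP. It rose by 1.87 (SE 0.16, adjusted p = 1.2e-06), and the next highest array was a knockout corn oil liver at 4.10. Smc2 and Smc4, the core of condensin, which compacts chromosomes, both rose. Smc2 went from 3.18 and 3.30 to 4.49 and 4.39 (1.20, SE 0.11, adjusted p = 2.99e-06), and Smc4 from 5.02 and 4.85 to 6.31 and 6.15 (1.29, SE 0.14, adjusted p = 1.5e-05). Cdca5 (sororin), which protects cohesion between sister chromatids, rose by 1.01 (SE 0.10, adjusted p = 1.03e-05). Top2a, the topoisomerase that untangles chromosomes, read 5.43 and 5.52 against 5.54 and 5.26. Its change of -0.08 (SE 0.14) was the only one below 0.

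Of the 6 spindle genes 3 rose. Ckap2, a spindle-associated protein, went from 4.48 and 4.79 to 5.82 and 5.52 (1.03, SE 0.14, adjusted p = 0.000157). Hmmr, which helps to assemble spindles, went from 4.17 and 4.10 to 5.23 and 5.02 (0.99, SE 0.13, adjusted p = 0.000141). Nusap1, which bundles spindle microtubules, rose by 0.63 (SE 0.12, adjusted p = 0.004). The motors did not pass. Kif22, a kinesin that binds chromosomes, read 6.15 and 5.93 against 6.42 and 6.54, just outside the threshold (0.44, SE 0.12, adjusted p = 0.0524). Kif11, the motor that pushes the spindle poles apart, read 5.34 and 5.11 against 5.82 and 5.37 (0.37, SE 0.18, adjusted p = 0.296). Tacc3, which stabilises spindle microtubules, read 4.89 and 5.03 against 5.42 and 5.16 (0.33, SE 0.12, adjusted p = 0.164). In all 3 the TCPOBOP arrays lay above the corn oil arrays, as they did in 27.6% of all genes.

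Of the 5 cytokinesis genes 4 rose. Ect2, which activates the GTPase that builds the contractile ring, was dim on all arrays, at 2.63 and 2.61 with corn oil and 3.96 and 3.48 with TCPOBOP. It rose by 1.10 (SE 0.13, adjusted p = 5.15e-05). Kif20a, a motor of the central spindle, went from 3.84 and 3.64 to 4.40 and 4.49 (0.71, SE 0.10, adjusted p = 0.000223). Racgap1 (0.68, SE 0.12, adjusted p = 0.003) and Prc1 (0.58, SE 0.12, adjusted p = 0.00907), which organise the central spindle, also rose. Kif23, the motor that partners Racgap1, read 6.33 and 5.98 against 6.69 and 6.36 and was not called (0.37, SE 0.14, adjusted p = 0.151).

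Leaving out each of the 4 wild-type arrays of this comparison in turn gave 18 to 23 called genes, and 16 genes were called in every case. The other 9 lost the call at least once: Incenp, Prc1, Mad2l1, Nusap1 and Melk without corn oil replicate 1, Aurkb, Bub1b, Cenpa, Incenp, Prc1 and Melk without corn oil replicate 2, Aurkb, Bub1b, Incenp, Mad2l1, Prc1, Racgap1 and Melk without TCPOBOP replicate 1, and Nusap1 and Melk without TCPOBOP replicate 2.

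**Figure D3:**
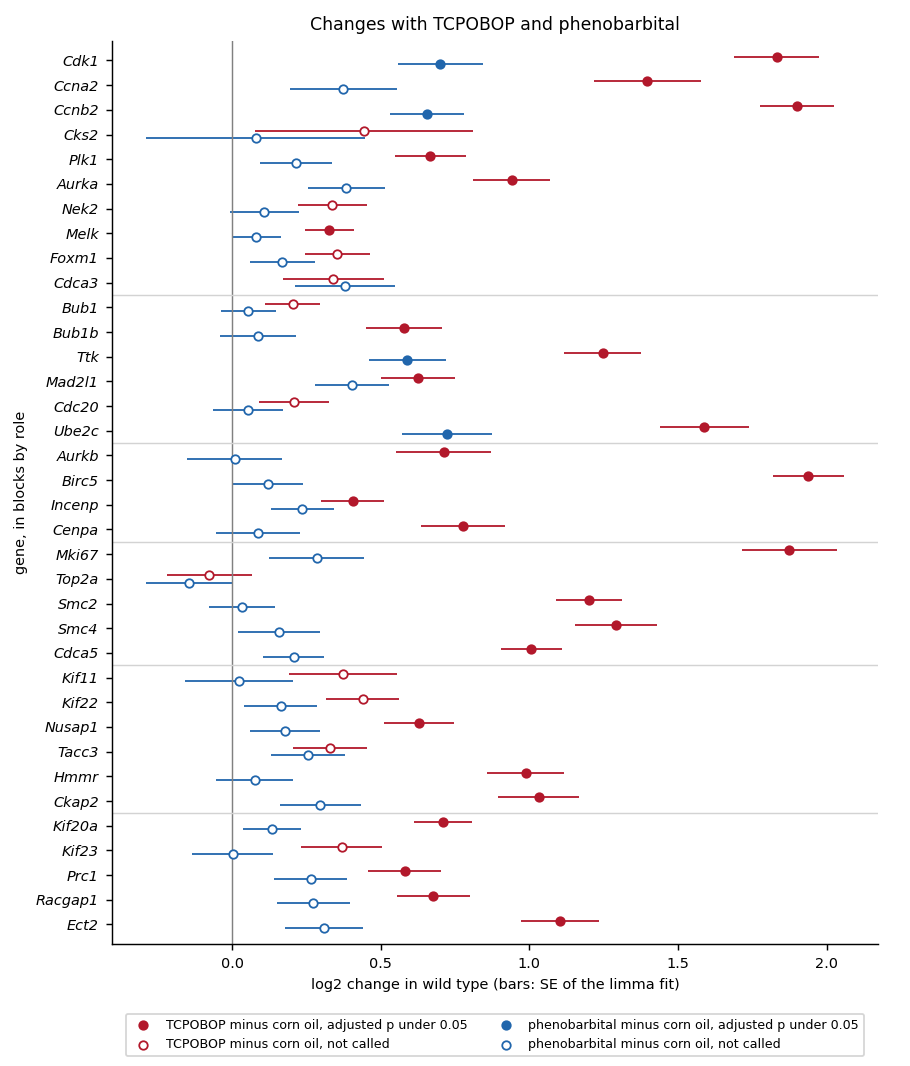
Log2 change of each of the 36 genes in wild type, TCPOBOP minus corn oil in red and phenobarbital minus corn oil in blue, with bars for the SE of the limma fit and filled points for an adjusted p under 0.05. With TCPOBOP 25 points are filled, up to 1.94 for Birc5, and with phenobarbital 4 are filled, up to 0.72 for Ube2c.

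Of the 36 genes, 19 had more than 1 probe set, and the choice among them mattered for several. Over all 67 probe sets 63 had a change above 0 and 37 were called higher, against 2.64% of the 22626 probe sets of the array. Of the 11 genes not called above, 5 had another probe set that was called. For Cdc20 the other probe sets read 3.62 and 3.57 against 6.87 and 6.41 (change 3.04, SE 0.19, adjusted p = 5.13e-08) and 4.71 and 4.34 against 6.50 and 6.02 (1.74, SE 0.23, adjusted p = 0.00017). The first is larger than any change of the chosen probe sets. For Top2a the other probe set read 3.69 and 3.86 against 4.97 and 5.35 (1.39, SE 0.14, adjusted p = 7.17e-06). For Cdca3 one of the others read 4.07 and 4.46 against 6.30 and 5.60 (1.68, SE 0.18, adjusted p = 1.9e-05). In these 3 genes the wild-type TCPOBOP arrays thus exceeded all the others on a dimmer probe set, while the brighter one was not called. Another probe set of Foxm1 was called at 0.56 and one of Tacc3 at 0.79. Incenp, called at 0.41, had another at 1.36. In the opposite direction, a second probe set of Nusap1 and both others of Kif23 had changes between -0.13 and -0.02 that were not called. Aurkb, Smc4, Cdca5 and Racgap1, called on the brightest probe set, also had no other called. Their others changed by 0.06 for Aurkb, 0.42 and 0.26 for Smc4, 0.55 for Cdca5 and 0.30 for Racgap1. Ccna2, Hmmr, Incenp and Prc1 had at least 1 other called. Of all 31 other probe sets 12 were called. Counting a gene with any probe set called, 30 of 36 were higher with TCPOBOP, against 3.36% of all genes by the same count.

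**Figure D4:**
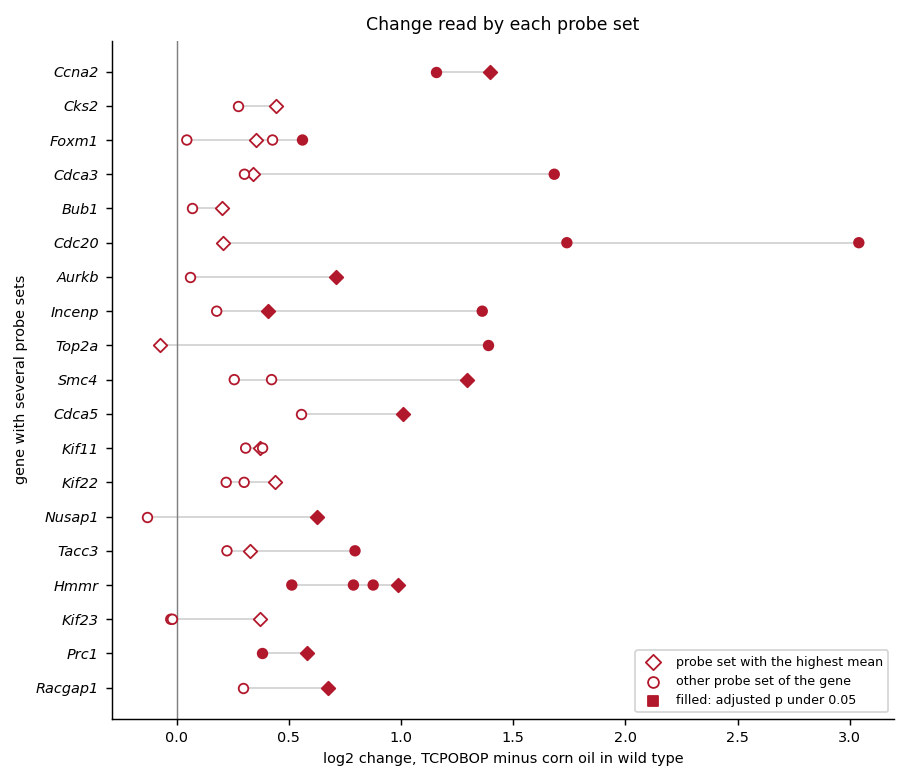
Log2 change in wild type, TCPOBOP minus corn oil, for every probe set of the 19 genes that have several, with diamonds for the probe set of highest mean, circles for the others and filled symbols for an adjusted p under 0.05. The probe sets of Cdc20 range from 0.21 to 3.04 and those of Top2a from -0.08 to 1.39. The 2 open circles of Kif23 near 0, at -0.03 and -0.02, overlap; neither was called.

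Other cell cycle genes were taken as lists, and some of them moved too. Of 45 other mitosis genes 17 rose and 0 fell (median 0.30), among them Shcbp1 (1.25, SE 0.14), Pbk (1.16, SE 0.10), Ncapd2 (0.82, SE 0.11) and Cenpk (0.72, SE 0.09). Of 28 S phase genes 16 rose (median 0.64), with Mcm6 of the replicative helicase at 2.40 (SE 0.23) and the ribonucleotide reductase subunit Rrm2 at 1.81 (SE 0.14). Of 14 genes of the anaphase-promoting complex and mitotic exit 0 were called, and the median was -0.04. In the DREAM and MuvB complexes 1 of 9 rose, Rbl1 (0.76, SE 0.11). Like Shcbp1 and Cenpk, Rbl1 lay below the dim limit on all arrays. Of 12 G1 cyclins and kinases E2f1 alone rose (0.40, SE 0.10), while Ccnd1 was at 1.01 (SE 0.33, adjusted p = 0.0929). Of 14 cell cycle inhibitors 3 rose, led by Gadd45b (2.31, SE 0.28). Each count stands beside the 2.81% called higher among all genes.

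Markers of liver cell types gave the following in the same comparison. All 11 hepatocyte markers changed by less than 0 and 0 were called (median -0.22), and their mean level was 11.88 to 12.10 with corn oil and 11.71 to 11.75 with TCPOBOP. Of 12 Kupffer cell markers 0 were called (median -0.13; 7.44 to 7.85 against 7.39 to 7.65). Of 12 endothelial markers 1 fell, Vwf (-0.49, SE 0.14), with a median of -0.25. Vwf lay below the dim limit on all arrays. Of 10 neutrophil markers 1 rose, Mpo (0.52, SE 0.13), with a median of 0.16. Of 13 lymphocyte, 9 erythroid, 11 stellate cell and 7 cholangiocyte markers 0 were called, with medians of 0.10, 0.09, 0.02 and 0.06. The part of cell composition in the rise of the mitosis genes was not tested.

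Phenobarbital raised 4 of the 36 genes in wild type and lowered 0, against 0.654% of all genes called higher. They were Ube2c, Cdk1, Ccnb2 and Ttk, which are an anaphase enzyme, the mitotic kinase, its cyclin and a checkpoint kinase. Ube2c read 5.19 and 5.55 with phenobarbital (change 0.72, SE 0.15, adjusted p = 0.0262), and Cdk1 5.54 and 5.70 (0.70, SE 0.14, adjusted p = 0.0261). Ccnb2 read 4.83 and 4.88 (0.66, SE 0.12, adjusted p = 0.0162), and Ttk 4.13 and 4.02 (0.59, SE 0.13, adjusted p = 0.0347). In these 4 genes both phenobarbital arrays lay between the corn oil and the TCPOBOP arrays. The same order held in 21 of the 36 genes, as it did in 4.55% of all genes, and in 23 the phenobarbital arrays were above the corn oil arrays, as in 26.5% of all genes. The median change was 0.17, against 0.02 over all genes, and 35 of 36 were above 0. Birc5 (0.12), Smc2 (0.03), Hmmr (0.08) and Mki67 (0.28), which rose strongly with TCPOBOP, were not called. The 4 calls were weak: without phenobarbital replicate 1 only Ube2c was called, and without phenobarbital replicate 2 or either corn oil array 0 were. All 12 Kupffer cell markers were below their corn oil level in these livers (median -0.48, 0 called), and the part of this in the result was not tested.

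Set directly against phenobarbital, TCPOBOP livers of wild type were higher in 17 of 36 genes and lower in 0, against 0.799% of all genes called higher. Birc5 differed by 1.82 (SE 0.12, adjusted p = 1.79e-07), Mki67 by 1.59 (SE 0.16, adjusted p = 1.79e-05), Ccnb2 by 1.24 (SE 0.12, adjusted p = 1.79e-05), Smc2 by 1.17 (SE 0.11, adjusted p = 1.12e-05), and Smc4 and Cdk1 by 1.13 each. Of the 36 genes 1, Cdca3, had a larger change with phenobarbital (0.38 against 0.34). Among the 25 genes called with TCPOBOP, which were thus chosen for a large TCPOBOP change, the phenobarbital change was smallest in proportion for Aurkb, at 1.2% of the TCPOBOP change, and Smc2, at 2.8%, and largest for Mad2l1, at 64.5%, and Incenp, at 58.2%. Without phenobarbital replicate 1 the count fell to 9, and without TCPOBOP replicate 1 to 11. All 12 Kupffer cell markers were higher with TCPOBOP than with phenobarbital (median 0.39, 0 called), at a mean level of 7.39 to 7.65 against 7.07 to 7.19. Hepatocyte markers were at 11.71 to 11.75 against 11.83 to 11.84, neutrophil markers at 5.52 to 5.61 against 5.38 to 5.45 and stellate cell markers at 6.52 to 6.54 against 6.33 to 6.46. The part of these shifts in the difference was not tested. Ligand, dose and dosing schedule differ between these treatments and cannot be told apart.

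**Figure D5:**
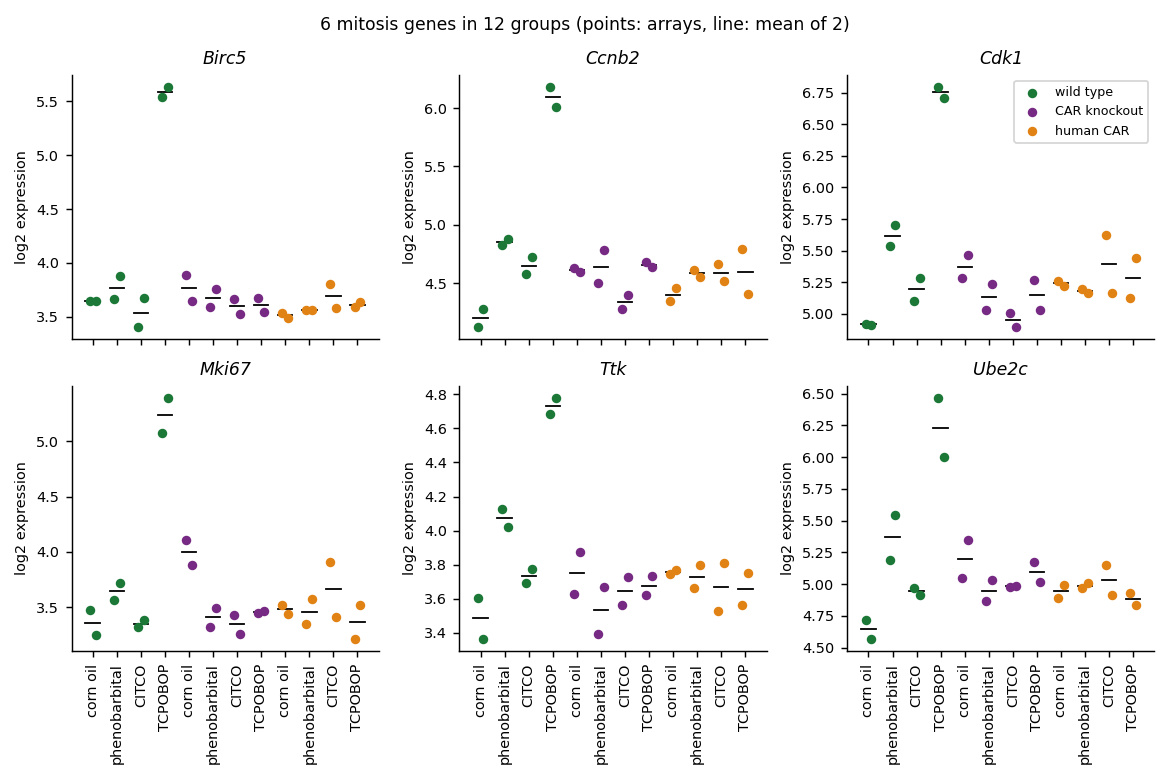
Log2 expression of 6 mitosis genes in the 12 groups, with 1 point for each array and a line at the mean of 2, coloured by genotype. In each gene the wild-type TCPOBOP arrays lie highest, between 4.69 and 6.80, and in Ccnb2 and Ttk both wild-type phenobarbital arrays lie next.

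CITCO, a ligand of human CAR, left the mitosis genes of wild type without a call. The count was 0 of 36, against 0.0242% of all genes in either direction. An unadjusted p under 0.05 was found in 3, each higher, against 3.78% of all genes in that direction. Ccnb2 had the largest difference, at 4.58 and 4.72 against 4.12 and 4.27 with corn oil (0.45, SE 0.12, adjusted p = 0.419). Those 2 arrays lay above the corn oil arrays, yet the gene did not pass.

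TCPOBOP called no mitosis gene in livers without mouse CAR. In knockout livers 0 of 36 genes passed in either direction, against 0.0646% of all genes, and the median change was 0.00. At an unadjusted p under 0.05 there were 0 upwards and 3 downwards, against 6.08% and 5.1% of all genes. Birc5 read 3.89 and 3.64 with corn oil and 3.68 and 3.55 with TCPOBOP, Cdk1 5.28 and 5.46 against 5.27 and 5.03, and Ccnb2 4.63 and 4.60 against 4.68 and 4.64. Their TCPOBOP arrays lay within or near the range of the corn oil arrays. The lowest change was that of Mki67, -0.54 (SE 0.16, adjusted p = 0.272), where corn oil arrays at 4.10 and 3.89 stood above the TCPOBOP arrays at 3.45 and 3.46. All 12 Kupffer cell markers were also lower in the knockout TCPOBOP livers (median -0.95, 1 called), at a mean level of 6.84 to 7.32 against 7.90 to 8.11 with corn oil, and the part of this in the result was not tested.

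The effect of TCPOBOP differed between wild type and knockout in 17 of 36 genes, each more positive in wild type, against 1.07% of all genes. The differences of the changes were 2.41 (SE 0.23, adjusted p = 1.16e-05) for Mki67, 2.09 (SE 0.17, adjusted p = 2.82e-06) for Birc5, 2.05 (SE 0.20, adjusted p = 1.63e-05) for Cdk1 and 1.86 (SE 0.18, adjusted p = 1.16e-05) for Ccnb2. Ccna2, Ube2c, Smc4, Smc2, Ttk, Ckap2, Cenpa, Ect2, Hmmr, Aurka, Cdca5, Plk1 and Kif20a followed, between 1.76 and 0.72. In 14 of the 17 the call held whichever of the 8 arrays was left out: Hmmr lost it without knockout corn oil replicate 1, Kif20a without replicate 2 of wild-type corn oil or of wild-type TCPOBOP, and Plk1 without any of the 8. All 12 Kupffer cell markers had a more positive effect in wild type too (median 0.76, 1 called), while of the 11 hepatocyte markers 0 were called (median -0.16).

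Phenobarbital in knockout livers lowered 1 of 36 genes, Smc2, and raised 0, against 0.799% of all genes in either direction. Smc2 read 3.12 and 2.79 with phenobarbital and 3.35 and 3.55 with corn oil, a fall of -0.50 (SE 0.11, adjusted p = 0.0488). The call was lost without phenobarbital replicate 2, the array that stood apart (change -0.33, adjusted p = 0.404), and without either corn oil array. Of 12 Kupffer cell markers 5 fell in the same livers (median -1.24), and the part of this was not tested. The 4 genes that rose with phenobarbital in wild type read, in knockout, 5.03 and 5.23 for Cdk1, 4.50 and 4.78 for Ccnb2, 3.39 and 3.67 for Ttk and 4.86 and 5.03 for Ube2c. The difference of the phenobarbital effects was called in 0 of 36 genes (0.121% of all genes). It had an unadjusted p under 0.05 in 9, each more positive in wild type, against 3.89% of all genes in that direction. Its median was 0.20, against -0.05 over all genes. Its values were 0.97 (SE 0.21, adjusted p = 0.0957) for Ube2c, 0.94 (SE 0.20, adjusted p = 0.0941) for Cdk1, 0.81 (SE 0.18, adjusted p = 0.113) for Ttk and 0.63 (SE 0.18, adjusted p = 0.254) for Ccnb2. So the phenobarbital response of these genes was not shown to differ between the genotypes. CITCO called 0 of 36 in knockout (0.0323% of all genes), with Mki67 lowest at -0.65 (SE 0.16, adjusted p = 0.202). An unadjusted p under 0.05 was reached by 0 upwards and 5 downwards, against 4.57% and 4.78% of all genes.

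In human CAR mice none of the 3 ligands moved the mitosis genes past the threshold. TCPOBOP called 0 of 36, where 0.0% of all genes were called. An unadjusted p under 0.05 was found in 2, each higher, against 3.64% of all genes in that direction. Cdk1 read 5.26 and 5.22 with corn oil and 5.13 and 5.44 with TCPOBOP, Birc5 3.54 and 3.49 against 3.59 and 3.64, and Mki67 3.52 and 3.44 against 3.21 and 3.52. The TCPOBOP effect was more positive in wild type than in human CAR mice in 15 of 36 genes, against 0.976% of all genes. Mki67 differed by 1.99 (SE 0.23, adjusted p = 8.67e-05), Birc5 by 1.84 (SE 0.17, adjusted p = 8.72e-06), Cdk1 by 1.79 (SE 0.20, adjusted p = 8.67e-05) and Ccnb2 by 1.70 (SE 0.18, adjusted p = 3.64e-05). This comparison and that with knockout share the 4 wild-type arrays. Of the 15 genes 12 kept the call whichever array was left out, and Aurka, Ckap2 and Kif20a each lost it without any of several arrays, human CAR TCPOBOP replicates 1 and 2 among them.

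CITCO, which acts on the human receptor and raised Cyp2b10 in these mice, called 0 of 36 mitosis genes there (0.0646% of all genes). Of the 36, 2 had an unadjusted p under 0.05, each higher, against 3.66% of all genes in that direction. Cdk1 read 5.62 and 5.17 with CITCO against 5.26 and 5.22 (difference 0.16, SE 0.14, 95% interval -0.15 to 0.46), and Birc5 3.81 and 3.58 against 3.54 and 3.49 (0.18, SE 0.12, interval -0.07 to 0.43). Mki67 read 3.91 and 3.42 against 3.52 and 3.44 (0.18, SE 0.16, interval -0.16 to 0.52). In Cdk1 and Mki67 one CITCO array lay above both corn oil arrays and the other below both. Kupffer cell markers were at a mean level of 7.46 to 7.61 with CITCO against 7.05 to 7.32 with corn oil. Hepatocyte markers were at 11.88 to 11.90 against 12.06 to 12.14, and neutrophil markers at 5.20 to 5.43 against 5.47 to 5.68. The other marker lists overlapped, and the part of these shifts in the result was not tested. Set against each other, the effect of TCPOBOP in wild type exceeded that of CITCO in human CAR mice in 15 of 36 genes, against 1.03% of all genes. Birc5 differed by 1.76 (SE 0.17, adjusted p = 1.91e-05) and Ccnb2 by 1.71 (SE 0.18, adjusted p = 4.7e-05). Of the 15 genes 11 kept the call whichever array was left out, and Aurka, Ccna2, Ckap2 and Kif20a lost it without human CAR corn oil replicate 2, among other arrays. Doses, dosing schedule and receptor differ between these arms and cannot be told apart. The CITCO effect in human CAR mice minus that in knockout was called in 0 of 36 (0.0242% of all genes). Mki67 was highest at 0.83 (SE 0.23, adjusted p = 0.373). Of the 36, 6 had an unadjusted p under 0.05, each more positive in human CAR mice, against 3.39% of all genes in that direction.

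Phenobarbital in human CAR mice called 0 of 36 genes (0.468% of all genes). At an unadjusted p under 0.05 there were 2 upwards and 2 downwards, against 7.88% and 10.9% of all genes. Both phenobarbital arrays lay above both corn oil arrays in 21 of 36 genes, as in 27.8% of all genes, and 27 of 36 changes were above 0 with a median of 0.13, against 0.04 over all genes. In wild type the corresponding values, given above, were 23 genes and a median of 0.17. The largest change was that of Cks2, -0.98 (SE 0.37, adjusted p = 0.177), and it rested on replicate 1, which read 5.66 while replicate 2 read 7.47 and the corn oil arrays 7.67 and 7.42. That array is one of the 2 that stood apart. With it alone in the group, that is without replicate 2, the median change of the 36 genes was 0.14, against 0.03 over all genes. The phenobarbital effect in wild type minus that in human CAR mice was called in 0 of 36 (0.0807% of all genes). Of the 36, 5 had an unadjusted p under 0.05, each more positive in wild type, against 5.24% of all genes in that direction. Cdk1 was at 0.76 (SE 0.20, adjusted p = 0.206) and Ube2c at 0.68 (SE 0.21, adjusted p = 0.322).

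On corn oil the genotypes did not differ past the threshold in any of the 36 genes. For knockout against wild type 0.194% of all genes were called, for human CAR mice against wild type 0.0323%, and for human CAR mice against knockout 0.145%. In knockout against wild type 9 genes had an unadjusted p under 0.05, each higher in knockout. Of all genes 3.52% were higher at that level. Both knockout arrays lay above both wild-type arrays in 18 of 36 genes, as in 19.4% of all genes. Of 12 Kupffer cell markers 11 were also higher in knockout (median 0.25, 1 called), at a mean level of 7.90 to 8.11 against 7.44 to 7.85, and of 11 stellate cell markers 10 (median 0.19, 0 called), at 6.62 to 7.03 against 6.43 to 6.51. Endothelial markers were at 6.53 to 6.64 against 6.50 to 6.52 and neutrophil markers at 5.46 to 5.57 against 5.35 to 5.41, and the part of these in the result was not tested. Mki67 was at 4.10 and 3.89 in knockout against 3.47 and 3.25 in wild type (0.64, SE 0.16, adjusted p = 0.253), and Ube2c at 5.05 and 5.34 against 4.72 and 4.57 (0.55, SE 0.15, adjusted p = 0.311). Human CAR mice, on the same knockout background, read 3.52 and 3.44 for Mki67, close to the wild-type arrays. Against knockout their Mki67 differed by -0.51 (SE 0.16, adjusted p = 0.519). An unadjusted p under 0.05 was reached by 4 genes, each lower, and 3.29% of all genes were lower at that level. Since the knockout corn oil arrays enter every ligand change in knockout, they bear on the difference of TCPOBOP effects for Mki67, which was 2.41 against knockout and 1.87 within wild type.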

How the data were processed

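Total RNA from 24 livers was measured on Affymetrix arrays, 1 per mouse. The deposited table holds log2 values that the authors made with RMA in R 2.15.0, per the submitters' processing notes; the package and the probe set definition were not given in the sources used here. Array medians ran from 5.41 to 5.51, and the values were used as deposited; the number of arrays limits the precision. Of 276 pairs of arrays none were copies (smallest SD of a difference 0.171, at most 0.0529% equal values), and 0 sample columns were left out.

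Probe sets were named by the platform annotation: 20380 had 1 gene symbol, 691 several and 1555 none listed, after 64 control probe sets were left out. Of several probe sets of a gene, the brightest on average over 24 arrays was used. A model of 12 group means was fitted to 24 arrays (12 residual degrees of freedom) with limma 3.58.1, run in R 4.3.3, which tested 19 comparisons over 12393 genes, with Benjamini-Hochberg adjustment within a comparison. No filter on dim probe sets was applied, because 7 of the 36 genes would pass it through wild-type TCPOBOP arrays alone. All probe sets were fitted in the same way for the comparison of probe sets.

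The genes, the 6 lists of related cell cycle genes and the 8 lists of cell type markers were chosen with earlier results of these data known. Any of the 36 genes could be named. Array values could be given for the 4 of lowest p in each role and for all that were not called. They could also be given for Mki67, Birc5, Cdk1, Foxm1 and Plk1, and up to 4 genes of each other list could be named. For Mad2l1, Bub1b, Cdca5, Nusap1, Racgap1 and Prc1, each among the 4 of lowest p, only change, SE and adjusted p were printed. The steps were tested on simulated data. Promoter windows were searched with Python 3.11.15. Alternatives were a dim filter, cyclic loess, averaged probe sets, an eBayes trend with robust estimation, the replicate number as a block, fewer arrays in the fit and each array left out. Passing over probe sets of types s_at and x_at, which can match several transcripts, was chosen after seeing the data.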

Additional observations from a re-analysis of the deposited data

Results flagged for a closer look

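The TCPOBOP effect differed between genotypes by a test of the difference itself, fitted with limma over all genes. Between wild type and knockout 17 of the 36 genes passed, and the log2 change in wild type minus that in knockout was, from the highest, Mki67 2.41, Birc5 2.09, Cdk1 2.05, Ccnb2 1.86, Ccna2 1.76, Ube2c 1.69, Smc4 1.57, Smc2 1.55, Ttk 1.32, Ckap2 1.16, Cenpa 1.16, Ect2 1.14, Hmmr 1.00, Aurka 0.99, Cdca5 0.99, Plk1 0.72 and Kif20a 0.72.

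Between wild type and human CAR mice 15 passed, and the log2 change in wild type minus that in human CAR mice was, from the highest, Mki67 1.99, Birc5 1.84, Cdk1 1.79, Ccnb2 1.70, Ube2c 1.65, Ccna2 1.45, Smc4 1.36, Ttk 1.34, Smc2 1.24, Ect2 1.22, Hmmr 0.98, Aurka 0.90, Cdca5 0.87, Ckap2 0.81 and Kif20a 0.59. Both comparisons use the same 4 wild-type arrays. No group held enough arrays for a test of outliers.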

How the results depend on the processing

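Of 252 counts of called genes under alternatives, 232 stayed within 1.5 times the reported count, and 13 of 19 comparisons did so throughout. Most of those 13 had a reported count of 0 that stayed 0. The 1286 values of single genes covered only genes called in the reported fit. Of these values 1159 kept the call, 127 lost it and 0 changed sign. A gene not called in the reported fit could not be counted as gaining a call. Genes chosen for their changes on these arrays could hardly change sign. For TCPOBOP against corn oil in wild type the count of 25 became 17 with the dim filter, which tests 25 of the 36 genes, and 23 to 29 under the other settings. Of the 25 genes that the filter keeps, 7 would not pass it without the wild-type TCPOBOP arrays. Counts with this filter in comparisons that use those arrays are therefore not independent support. TCPOBOP against phenobarbital in wild type gave 11 with the dim filter, in place of 17, and 9 to 13 when an array was left out. Phenobarbital in knockout gave 0 with the dim filter, the replicate block, without the 2 arrays that stood apart and with only the arrays of that genotype, 2 with cyclic loess, and 0 to 1 when an array was left out. Its effect in wild type minus knockout gave 1 with cyclic loess and 1 with only the arrays of those genotypes, and 0 to 1 when an array was left out. With an array left out, counts also moved for phenobarbital in wild type, in human CAR mice and for the difference of those effects. The numbers called among all genes moved as well. Leaving out an array left 1 in its group, which the fit assumes to vary like the other groups. The cause of these differences was not tested. A check of the replicate numbers gave no clear sign that they pair the mice. Over 66 pairs of groups the correlation of deviations ran from -0.437 to 0.435, with a median of 0.036. It was over 0.1 in 18 pairs and under -0.1 in 10. With values so widely spread, the check cannot exclude pairing. With the replicate block TCPOBOP in wild type again gave 25, and 18 of 19 counts stayed within 1.5 times. Low signal limits the 22 genes dim on both wild-type corn oil arrays, whose changes may be compressed.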
